A study of Arabidopsis thaliana with 13 samples.

Results

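The change in transcript levels of Arabidopsis thaliana from 0 h to 6 h was measured on 2 spotted cDNA arrays with 2 colours, of 13 arrays in the series. They are the arrays whose channel labels name 6 h and 0 h. Array 1 held RNA of 6 h in channel 2 and RNA of 0 h in channel 1, and array 2 held them the other way round. The title of array 2 names 0 h before 6 h although 6 h is in channel 1, and the channel labels decided. By its title, the series addresses genes under diurnal and circadian control. Of the other arrays, 8 set a later time against 0 h, namely 12 h on 5 arrays, 18 h on 2 and 24 h on 1. The last 3 arrays set 36 h against 24 h, 36 h against 24 h in the dark, and 60 h against 48 h. Per the description of the 60 h array, its plants came from light-dark cycles and were then held in continuous light. For the plants of 0 h and 6 h the labels give total RNA and the hour, but no tissue, age, accession or light condition, and no treatment or genotype. They call array 1 biological and say nothing of the kind for array 2, so it is not known whether the arrays hold separately grown plants, and p-values may in part measure technical spread.

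In leaves, photosynthesis, sugar supply and cold-response genes follow daily rhythms set by light and by the circadian clock, an oscillator that is itself reset by light. Light, sugar and the clock cannot be told apart from a pair of hours. The core clock genes could not be followed here, because TIC was the only gene of the clock list with a named feature. Of the 12800 features, 5197 carry a single gene, which gave 3689 named genes, of which 3682 had a value on both arrays. Only 545 of the named genes have a symbol in the gene table used here. The rest are given by their locus with no role, apart from the list that holds them. Values are log2 ratios of 6 h over 0 h, in which 1 is a 2-fold difference, after the median of each array was taken off. The deposited ratio was read as channel 2 over channel 1. This direction is likely but not stated, and the other reading would turn every higher and lower below.

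The arrays agreed on many of the larger differences. Over all 11256 targets with a value on both, Pearson's r between array 1 and array 2 was 0.405 across targets, and over the named genes it was 0.498, which describes these arrays since genes are not independent replicates. Of the named genes, 41 were over 2-fold higher at 6 h on both arrays (1.11% of 3682) and 53 were over 2-fold lower on both (1.44%). Only 6 named genes passed 2-fold in opposite directions (0.163%). At over 3-fold, 11 were higher on both, 11 lower on both and 1 opposite. On a single array, 271 named genes passed 2-fold on array 1 and 217 on array 2, so most of the differences seen on 1 array were smaller on the other. Without a threshold on size, 28.8% of named genes were higher on both arrays, 32.3% were lower on both and 38.8% had opposite signs.

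**Figure D1:**
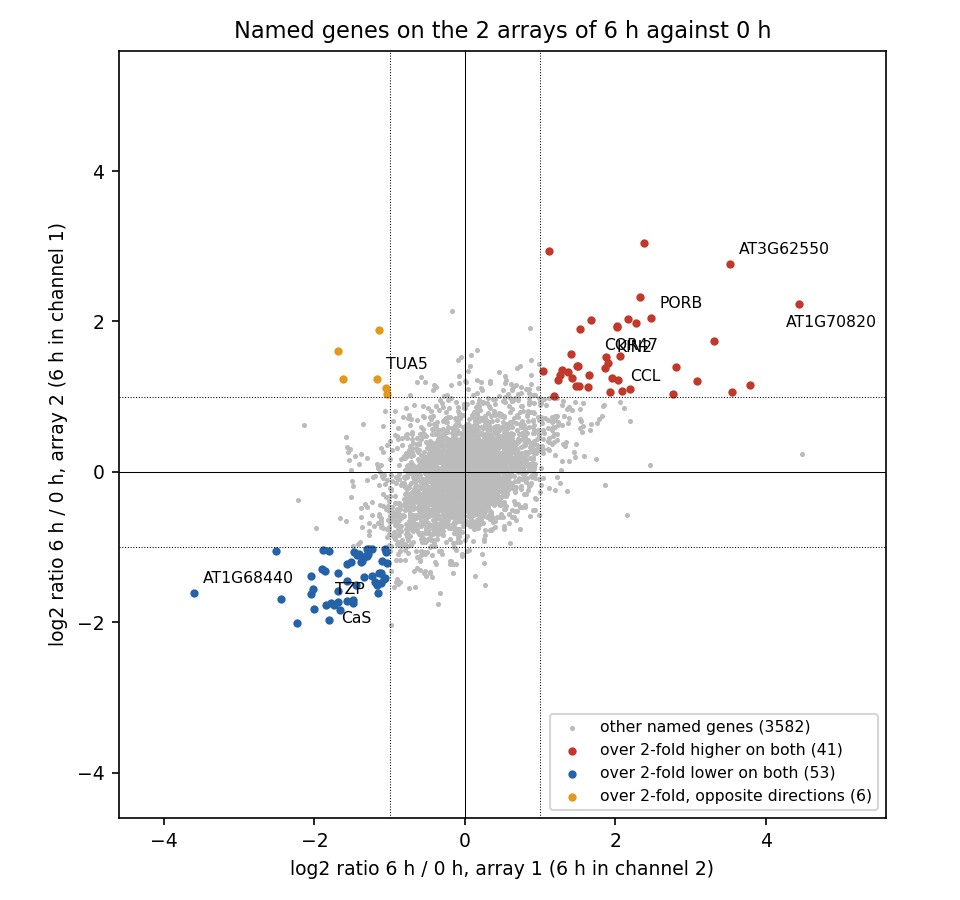
Each point is 1 of 3682 named genes, with the log2 ratio of 6 h over 0 h on array 1 (horizontal) and array 2 (vertical), and dotted lines mark 2-fold. The 41 genes higher on both arrays and the 53 lower on both far outnumber the 6 genes past 2-fold in opposite directions, which all lie at the upper left.

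Genes with several features on the array add a check within each array. Of the 94 agreeing genes, 31 had more than 1 feature, and in all 31 every feature had the sign of the gene's mean on both arrays. These features share the RNA and the hybridisation, and agreeing genes were chosen for size, so this describes the spots and is no test of the times. The differences were larger on array 1 for 65 of the 94 genes, with a median size of 1.6 on array 1 and 1.38 on array 2. Array 1 was read with ScanAlyze 2.44 and array 2 with 2.33, and their lot labels differ too, so software, lot and channel order cannot be told apart between them.

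A model over all 13 arrays gave the test for single targets. limma was fitted with 1 coefficient per pair of times and a dye term, and p-values were adjusted over all 11290 targets by the Benjamini-Hochberg method. Since the 6 h arrays have both channel orders, the fitted value is the mean of the 2 arrays. Its SE and p-value use 1 spread per target, estimated over all 13 arrays and shared by all pairs of times. They therefore do not reflect the gap between the 2 arrays of 6 h alone. For 6 h, 1 target passed (0.00886% of those tested), while 1688 had an unadjusted p below 0.05. AT3G62550 had log2 ratios of 3.53 and 2.76 on arrays 1 and 2, and its 2 features lay between 3.38 and 3.68 on array 1 and between 2.21 and 3.31 on array 2. It rose by 3.15 ± 0.34 (mean of 2 arrays, SE from the fit over 13 arrays, limma adjusted p = 0.0457), which is 8.86-fold. The call is close to its threshold: the adjusted p was 1 without array 1, 0.0639 without array 2, 0.0991 and 0.113 without arrays 3 and 5 of 12 h, 0.0589 without centring, 0.122 with a separate dye term for ScanAlyze 2.33, and 0.00413 to 1 over all alternatives. Another 7 named genes missed by little, all at adjusted p = 0.0509, and PORB and CaS were the ones with a symbol.

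Among the genes higher on both arrays, 5 have a symbol. PORB (AT4G27440), the enzyme that makes chlorophyllide from protochlorophyllide in the light, had log2 ratios of 2.48 and 2.05 (2.26 ± 0.31, 4.80-fold, limma adjusted p = 0.0509). COR47 (AT1G20440), a dehydrin of the cold and drought response, had 2.02 and 1.93 over 5 features (1.98 ± 0.35, adjusted p = 0.0586). Neither passed the test, and all features of both genes lay above 1.2 on both arrays.
KIN2 (AT5G15970), a small cold-induced protein, had 1.90 and 1.45 (1.68 ± 0.73, adjusted p = 0.324). CCL (AT3G26740), a transcript whose turnover is known to be under clock control, had 2.09 and 1.07 over 3 features (1.58 ± 0.41, adjusted p = 0.115). PRXR1 (AT4G21960), a peroxidase, had 1.37 and 1.33 over 7 features (1.35 ± 0.40, adjusted p = 0.146). Of these 5, PRXR1 and COR47 had nearly the same value on both arrays, while the 3 features of CCL ranged from 0.75 to 3.68 on array 1 and from 0.30 to 2.46 on array 2.

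The genes highest on both arrays were mostly known by locus alone. AT4G09500 had 2.38 and 3.05, AT5G18130 had 2.33 and 2.32, and AT1G70820 had 4.44 and 2.24. The means of AT4G09500 and AT5G18130 were 2.71 ± 0.45 and 2.32 ± 0.32, both at adjusted p = 0.0509, and that of AT1G70820 was 3.34 ± 0.74 (adjusted p = 0.0759). AT1G70820 thus had the largest mean of the agreeing genes but the widest gap between the arrays among the 12 highest. The other 6 of those 12, AT1G73600, AT3G27700, AT3G53990, AT1G33970, AT1G78110 and AT1G27930, had means between 1.81 and 2.53 and limma adjusted p-values from 0.0586 to 0.102. The 12 were taken by the smaller of their 2 values, which was 1.54 for the last of them (AT1G27930) and 1.53 for the next gene, AT1G56300.

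Among the genes lower on both arrays, 10 have a symbol. TZP (AT5G43630), a nuclear protein of light-dependent growth, had log2 ratios of -1.84 and -1.77 (-1.80 ± 0.46, limma adjusted p = 0.106). CaS (AT5G23060), a calcium-sensing protein of the thylakoid, had -1.48 and -1.70, and its 4 features lay between -2.03 and -1.17 over both arrays (-1.59 ± 0.26, adjusted p = 0.0509). SWEET11 (AT3G48740), a sucrose exporter of leaf veins, had -1.45 and -1.51 (-1.48 ± 0.30, adjusted p = 0.0643). For these 3 genes the arrays differed by less than 0.25, well under the size of the difference from 0 h.
GME (AT5G28840), an epimerase of GDP-mannose on the route to ascorbate, had -1.15 and -1.61 (-1.38 ± 0.25, adjusted p = 0.0586). The cytosolic isocitrate dehydrogenase gene cICDH had -1.51 and -1.20, and SAMDC, a decarboxylase of polyamine synthesis, had -1.29 and -1.09 over 5 features. EXO, which takes part in growth under brassinosteroids, had -1.34 and -1.13, and UBC28, a ubiquitin-conjugating enzyme, had -1.07 and -1.43. AKINBETA1, a beta subunit of SnRK1, a kinase that responds to energy supply, had -1.23 and -1.03 over 3 features, and the kinase gene ATMRK1 had -1.41 and -1.09. None of these 6 passed the test, with adjusted p-values between 0.0727 and 0.236.

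The lowest genes by the same rule were AT5G16110, with -2.23 and -2.01 (-2.12 ± 0.40, limma adjusted p = 0.0641), AT2G18970, with -2.00 and -1.83 (adjusted p = 0.0759), and AT5G14120, with -1.80 and -1.97 (adjusted p = 0.0733). The arrays nearly coincided for AT1G04040, with -1.74 and -1.77 (-1.75 ± 0.28, adjusted p = 0.0509), and for AT3G02690, with -1.69 and -1.73 (-1.71 ± 0.28, adjusted p = 0.0509). They were farthest apart for AT1G68440, with -3.59 and -1.61 (-2.60 ± 0.67, adjusted p = 0.110), whose 2 features had -4.02 and -3.16 on array 1 and -1.92 and -1.30 on array 2. The remaining 5, AT5G13100, AT1G54740, AT1G10740, AT5G15950 and AT3G56290, had means between -2.07 and -1.63 and adjusted p-values from 0.0641 to 0.294. The last of the 12 had a smaller value of -1.58 (AT3G56290), and the next gene, AT4G37560, of -1.56.

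**Figure D2:**
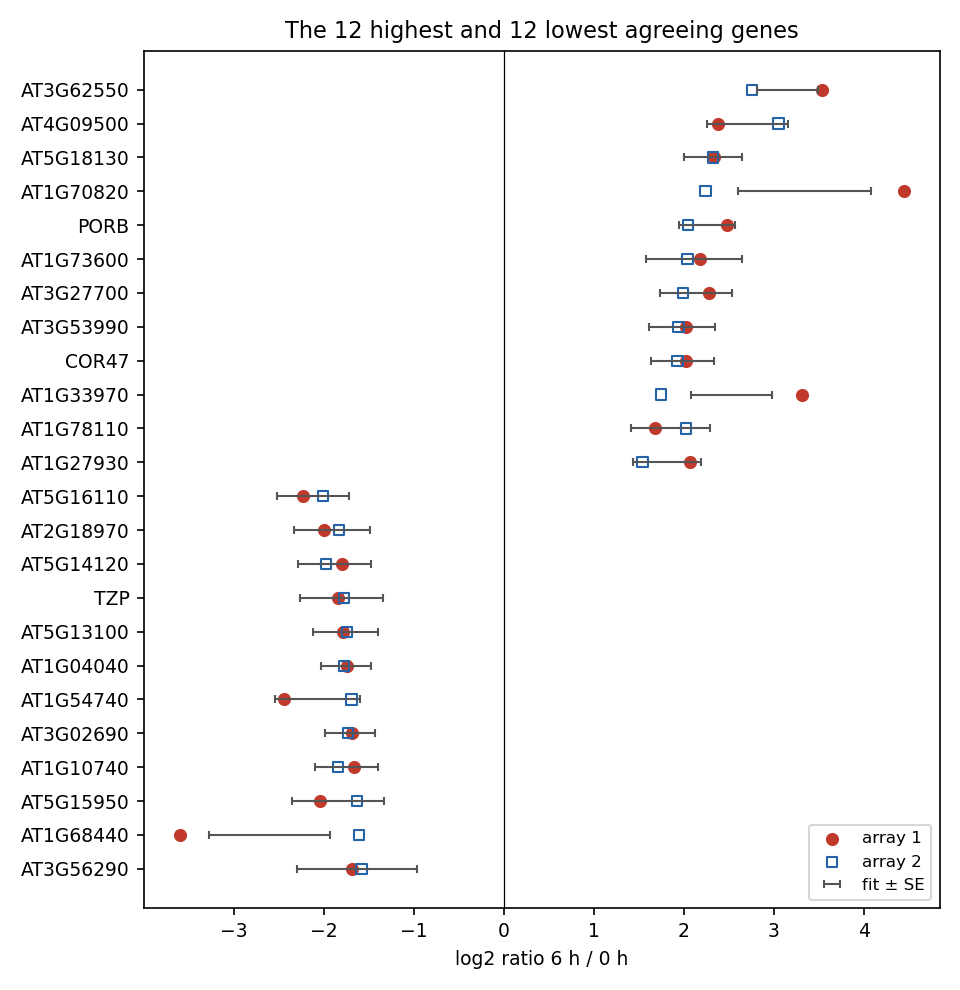
Log2 ratio of 6 h over 0 h on array 1 (filled circles) and array 2 (open squares) for the 12 highest and 12 lowest genes that agree, with the fitted value ± SE as a bar (n = 2 arrays). The symbols nearly coincide for, among others, AT5G18130, COR47, TZP, AT1G04040 and AT3G02690 and lie farthest apart for AT1G70820 and AT1G68440.

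Beyond 2-fold, 158 named genes were over 1.5-fold higher on both arrays and 181 over 1.5-fold lower. Of these, 31 and 28 have a symbol. Those higher include PDC2, a pyruvate decarboxylase, with 2.20 and 0.68, PIFI, of chlororespiration in the thylakoid, with 1.31 and 0.94, and TIL, a temperature-induced lipocalin, with 1.16 and 0.67. Among them are also the aldehyde dehydrogenases ALDH3F1, with 0.85 and 1.11, and ALDH7B4, with 1.02 and 0.72. PWD, a gene of the starch degradation pathway, had 1.0 and 0.93. The lower ones include the glutathione reductases GR, with -0.84 and -0.98, and GR1, with -0.95 and -0.85, and the copper chaperone CCS of superoxide dismutase, with -0.89 and -0.84. LYC, the lycopene cyclase of carotenoid synthesis, had -1.20 and -0.72, and NdhU, a subunit of the chloroplast NADH dehydrogenase-like complex, had -0.78 and -1.0. PMEPCRF, a pectin methylesterase, had -0.83 and -0.91. These genes were chosen after their values were seen, and none passed the test.

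The gene lists are described by counts alone, since no list was tested. In the photorespiration list, which recycles the product of Rubisco's oxygenase reaction, 4 of 4 measured members were lower on both arrays, with a median of -0.70, against 32.3% and a median of -0.02 over all named genes. HPR, the hydroxypyruvate reductase, had -0.44 and -1.10. AT1G11860 had -0.50 and -0.89, and AT1G80380 had -0.71 and -0.70. In the Calvin cycle list, 2 of 3 members were lower on both, with a median of -0.75. SBPASE, a phosphatase that regenerates the CO2 acceptor, had -0.75 and -1.54, and PRK, which makes that acceptor, had -0.57 and -0.93 over 5 features. RCA, the activase of Rubisco, had opposite signs at 0.25 and -0.90 over 9 features. The features of PRK lay between -1.23 and 0.47 on array 1 and between -1.16 and -0.51 on array 2, so not all had the sign of the mean. PRK and SBPASE were lower on array 2 than on array 1, as was RCA.

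Of the antenna list, whose proteins capture light for the photosystems, 3 of 4 members were higher on both arrays and 1 lower, with a median of 0.51. LHB1B2 had 0.82 and 1.10 over 13 features, which lay between 0.70 and 0.94 on array 1 and between 0.73 and 1.23 on array 2. LHCB4.2 had 0.35 and 0.50, and LHCB4.1 had 0.25 and 0.93, while LHCB4.3 had -0.72 and -0.32. The features of LHB1B2 can take up RNA of near-identical genes of its family. Of the photosystem and electron transport list, 1 of 5 members was lower on both arrays and 4 had opposite signs, with a median of 0.03, so no common direction was seen there. In chlorophyll synthesis PORB stood apart from HEME2, with 0.53 and 0.21, and HEMB1, with -0.04 and -0.56.

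Of the tubulin and actin list 6 of 8 measured members, all tubulins, were higher on both arrays and 0 lower, with a median of 0.70, against 28.8% higher over all named genes. TUA6 had 0.88 and 1.29, TUB5 had 1.20 and 0.74, TUB6 had 1.0 and 0.88, and TUA2 had 0.63 and 1.09. TUA5 had opposite signs at -1.16 and 1.24, and TUA1 had -0.49 and 0.37. Tubulin genes are alike in sequence, so their features are not independent. In the cold and dehydration list 4 of 5 members were higher on both arrays, with a median of 0.87. Beside COR47 and KIN2 these were RD2, with 1.23 and 0.51, and LTI30, a dehydrin, with 1.18 and 0.51. LEA4-5 had -0.18 and -0.14.

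Of 13 measured members of the dark and starvation list, 5 were higher on both arrays, 3 lower and 5 opposite, with a median of 0.12. The leucine-breakdown genes MCCA, MCCB and IVD, which are known to be induced in the dark, had -0.43 and -0.08, 0.32 and -0.09, and 0.10 and 0.48. Ubiquitin and proteasome genes had a median of -0.02 over 15 members, of which UBC28 was the 1 past 2-fold on both arrays. Of the protein folding list 1 of 4 members was lower on both and 3 were opposite. The auxin and cell wall list had 3 of 6 members lower on both and 0 higher (EXO, IAA18 and IAA31), and the antioxidant list had 3 of 4 lower and 1 higher, the peroxidase PRXR1. TIC, the sole clock gene measured, had -0.54 and 0.51. Of single members, HCT, of phenylpropanoid synthesis, had -0.64 and -0.48 and the sulphite reductase SIR had -0.51 and 0.18. The calmodulin-like genes CML23 and CML37 had -0.04 and -0.31, and -0.22 and 0.43. As markers of other organs, the root gene PYK10 had 0.90 and 0.32 and the seed oleosin OLEO3 had -0.12 and 0.04. No member of any list passed limma's test. The lists hold few members each and were drawn up with earlier results of these arrays known.

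**Figure D3:**
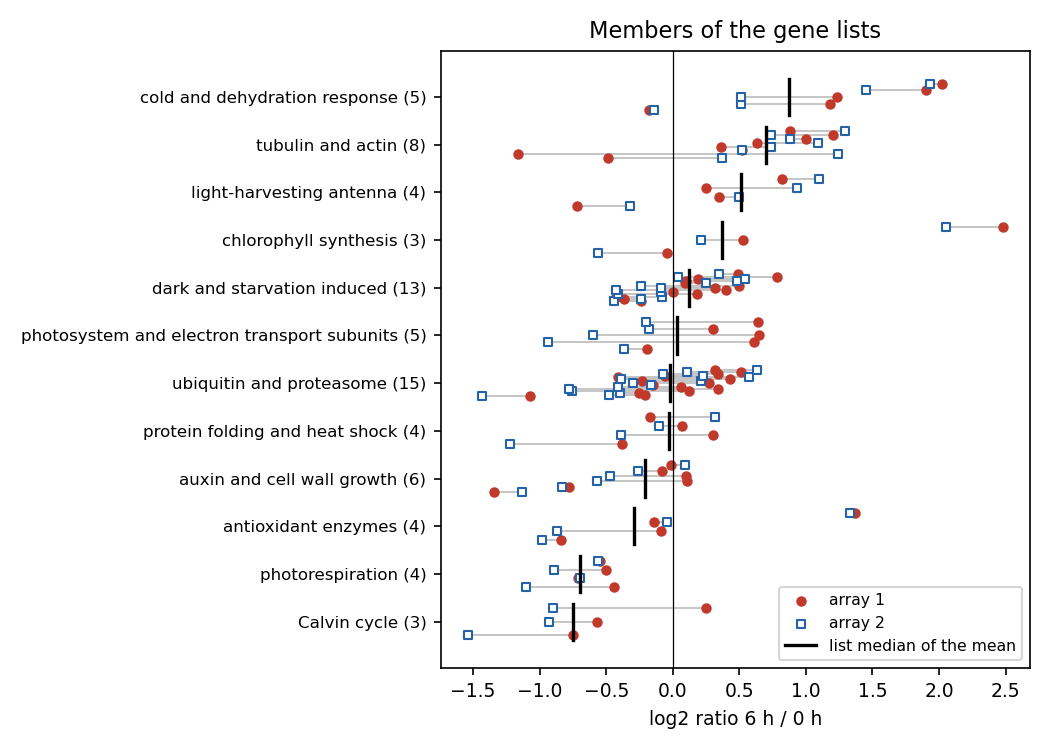
Log2 ratio of 6 h over 0 h on array 1 (filled circles) and array 2 (open squares) for each member of the 12 lists with at least 3 measured members, joined by a grey line, with the list's median as a black bar and the number of members in brackets. Photorespiration members all lie left of 0 on both arrays, while RCA, TUA5 and 4 of the 5 photosystem and electron transport genes have their arrays on opposite sides.

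Whether the difference at 6 h was unlike that at 12 h was tested as the 6 h minus the 12 h coefficient in the same fit. No target passed in limma (0 of 11290, 0%). An unadjusted p below 0.05 was found for 481, a smaller share than the 0.05 that would fall there if no target differed. No gene can therefore be named as early or late from these arrays. AT3G62550 had 3.15 ± 0.34 at 6 h and 1.11 ± 0.22 at 12 h, a difference of 2.03 ± 0.40 (adjusted p = 0.824), and AT5G18130 had 2.32 ± 0.32 at 6 h and 0.54 ± 0.21 at 12 h, a difference of 1.78 ± 0.38 (adjusted p = 0.824). LHB1B2, chosen here after its values were seen, had 0.96 at 6 h and -0.46 at 12 h, a difference of 1.41 ± 0.40 (adjusted p = 0.935). THIC, of thiamine synthesis and chosen likewise, had -0.73 at 6 h and 1.01 at 12 h, a difference of -1.74 ± 0.55 (adjusted p = 0.970). Both comparisons share RNA of 0 h, so their values are given side by side only. In the order 6, 12 and 18 h, PORB stood at 2.26, 1.06 and 1.17, and COR47 at 1.98, 1.08 and 0.36. KIN2 stood at 1.68, 1.74 and -0.03, and TZP at -1.80, -1.53 and -1.15. SWEET11 stood at -1.48, -0.42 and -0.31, and AKINBETA1 at -1.13, -1.40 and 0.30. The 12 h values include array 1 of 12 h, which had the smallest SD of all arrays (0.382). On it PORB had 0.17, COR47 0.08, KIN2 0.28, TZP -0.40, SWEET11 0.02 and AKINBETA1 -0.11. Smaller values at 12 h than at 6 h are therefore not read as a fall. At 18 h none of these 6 genes passed limma's test (adjusted p from 0.638 for PORB to 0.998 for KIN2). RNA of 18 h was in channel 1 on both of its arrays, so the dye term that adjusts these values comes from other arrays.

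**Figure D4:**
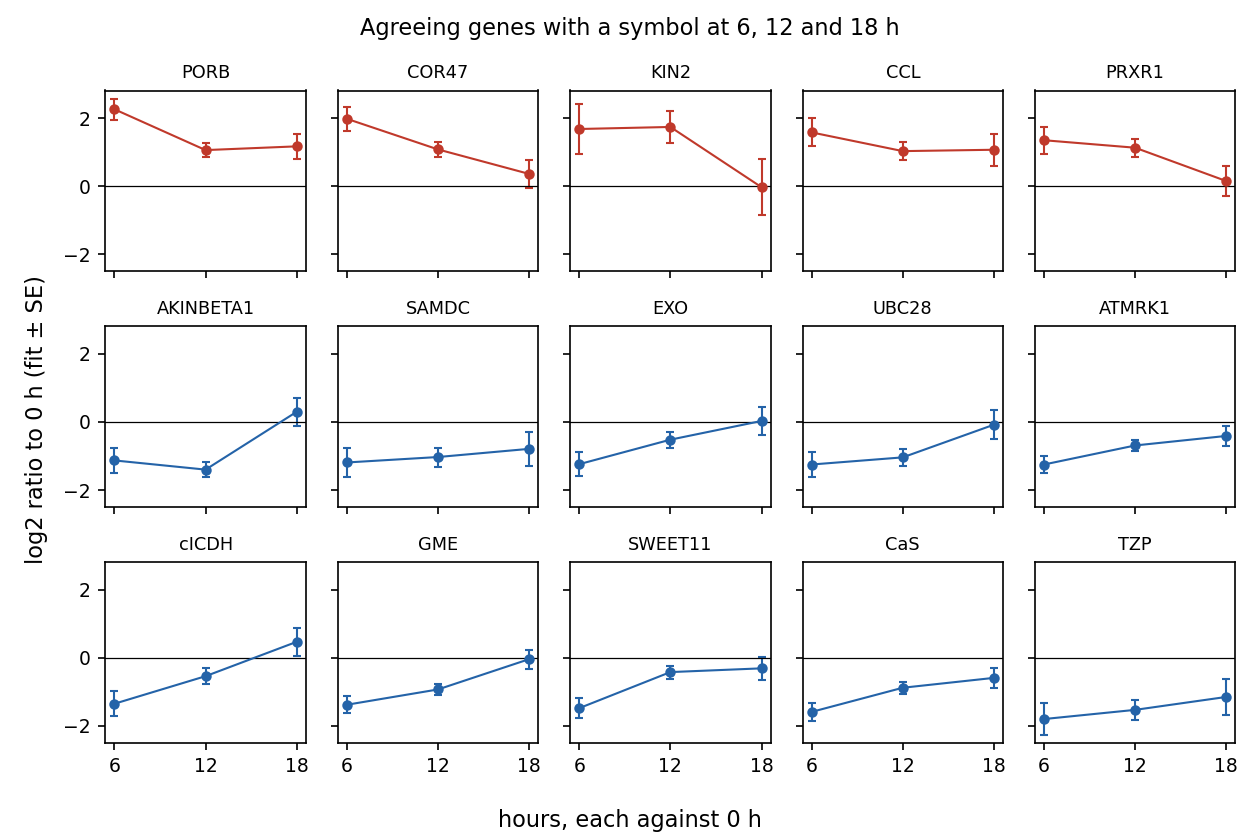
Fitted log2 ratio to 0 h ± SE at 6 h (2 arrays), 12 h (5 arrays) and 18 h (2 arrays) for the 15 genes with a symbol that were over 2-fold higher (red) or lower (blue) on both arrays of 6 h. AKINBETA1 and KIN2 are as far from 0 at 12 h as at 6 h, and SWEET11 and COR47 lie nearer to 0 at 12 h. The 12 h values include array 1 of 12 h, on which SWEET11 had 0.02 and COR47 0.08.

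The 3 arrays without 0 h RNA give readings that share no sample with 6 h against 0 h. Of the 41 genes higher at 6 h, 36 (87.8%) were also above 0 for 36 h against 24 h and 35 of 40 (87.5%) for the same times in the dark, where 47.9% and 46.9% of all named genes were. Of the 53 lower genes, 41 (77.4%) and 38 (71.7%) were below 0, against 52.0% and 53.1% of all named genes. These arrays have opposite channel orders, and 33 of the 41 and 35 of the 53 kept their sign on both, where 1271 of all 3679 named genes were above 0 on both and 1462 below 0 on both. Keeping the sign does not depend on how the direction of the ratio is read. For 60 h against 48 h in continuous light the shares were 15 of 40 (37.5%) and 21 of 53 (39.6%), against 48.4% and 51.6%. The pattern was thus seen on the arrays of 36 h and not on that of 60 h, each of which is a single array. The 60 h array was also the weaker reading. Over 782 genes with 2 features, r between the features was 0.213 on it, against 0.495 for 36 h and 0.551 for 36 h in the dark. Of its features 7.29% lay past 2-fold of the array's median, against 21.6% and 17.1%. Why the 60 h array differed was not tested.
Several of the named genes followed the pattern of the 36 h arrays, and others did not. AT3G62550 had 2.96 for 36 h against 24 h and 2.66 in the dark, and -0.66 for 60 h against 48 h. COR47 had 1.57, 1.69 and -0.08 on the same arrays, CaS had -3.20, -3.52 and 0.48, and TZP had -1.49, -1.72 and 0.30. PORB was smaller there than at 6 h, with 0.74, 0.77 and -0.22. Of the highest genes at 6 h, AT1G73600 had -0.79 for 36 h against 24 h and -0.98 in the dark, and AT1G70820 had 0.28 and -0.02. AT5G16110, the lowest gene at 6 h by the rule used above, had 0.48 and 0.55. Only 2 of the 94 genes passed 2-fold the other way on both arrays of 36 h: AT5G33370, with 1.95 and 1.25 at 6 h, had -2.78 and -3.13, and AKINBETA1, with -1.23 and -1.03 at 6 h, had 1.69 and 1.92.

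**Figure D5:**
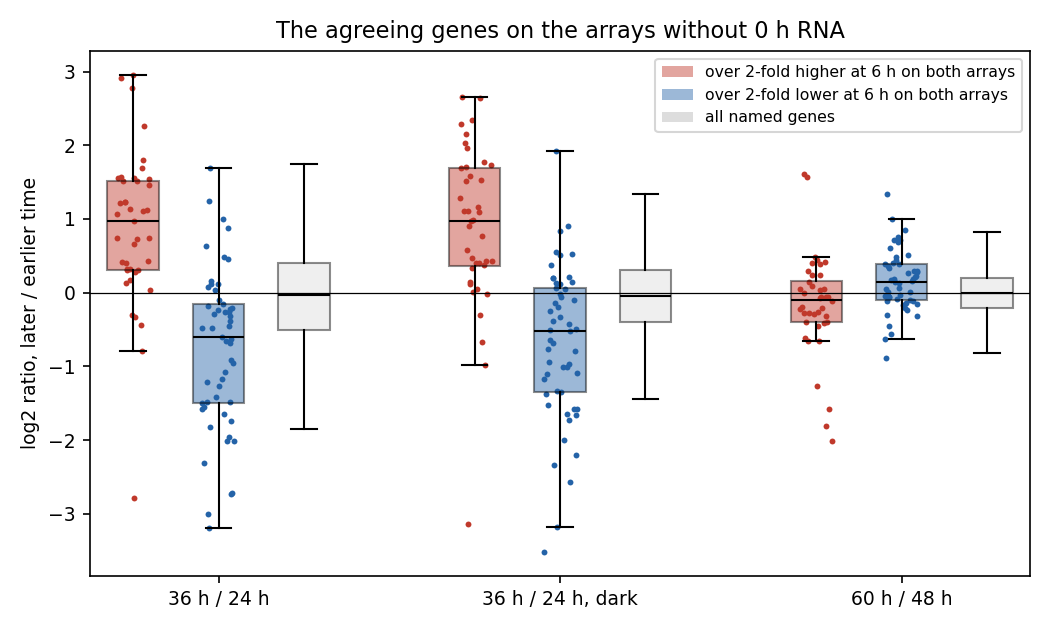
Log2 ratio of the later over the earlier time on the 3 arrays without 0 h RNA for the 41 genes over 2-fold higher at 6 h (red), the 53 over 2-fold lower (blue) and all named genes (grey). Boxes show quartiles with the median, whiskers reach to 1.5 times the box height, and points are genes. Medians of the higher and lower genes are 0.97 and -0.60 for 36 h against 24 h, 0.98 and -0.52 in the dark, and -0.10 and 0.15 for 60 h against 48 h.

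Genes past 2-fold on which the arrays disagreed nearly all did so in the same way. The 6 named genes past 2-fold in opposite directions were all lower on array 1 and higher on array 2, which in both cases is a lower signal in channel 2. The 3 largest were AT2G34930, with -1.68 and 1.61, AT3G43110, with -1.62 and 1.24, and TUA5, with -1.16 and 1.24. Among the 7574 features without a single gene, 217 were higher on both arrays, 123 lower on both and 82 opposite, 81 of which were lower in channel 2. The resulting 87 targets also lay mostly below the array's median of channel 2 over channel 1 on other arrays, though not on all. The shares were highest with 87 of 87 on that of 24 h, 81 of 85 on array 4 of 12 h and 80 of 87 on array 3 of 12 h. On the array of 36 h in the dark 23 of 87 did, on array 1 of 18 h 32 of 70, and on that of 60 h 37 of 76. On the remaining arrays the share lay between 67.8% and 83.9%. The cause was not tested, and none of these targets is counted among the agreeing genes.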

How the data were processed

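The values analysed are log2 ratios of the 2 channels, as the authors deposited them, 1 per feature and array. Per the labels, arrays were read with ScanAlyze 2.33, 2.42 or 2.44. Background correction and normalisation are not given in the sources used here, no spot signals were used, and the number of arrays limits the precision. The base of the log was read as 2, as the log2 of a ratio of 1 to 2 occurs 159 times, against a mean of 20.4 at neighbouring steps. This is a count at 1 value, which a rounded ratio in another base could also give, so the base is likely but not settled by it. The direction, channel 2 over channel 1, is likely but unstated. It rests on the usual form and on the array of 36 h in the dark, where MCCA (3.52), MCCB (2.68) and IVD (3.06), known to be dark-induced, were higher and SBPASE (-2.68) lower. The array of 36 h not labelled dark had like values (MCCA 3.16, MCCB 2.77, IVD 3.02, SBPASE -2.81), so they are not particular to the dark array. The 2 arrays of 6 h had medians of -0.026 and -0.064 and SDs of 0.708 and 0.651, and gave values for 12773 and 12787 features. The SDs of the other arrays ran from 0.382 to 0.858, the lowest being array 1 of 12 h.

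Each array was centred on its median, and features of 1 gene were averaged. Of 5197 features with 1 gene, 5190 matched the TAIR10.1 gene table. Another 214 features had several genes and 7389 were not listed, so they are unnamed and kept as single targets. Targets with values on at least 10 of 13 arrays were fitted with limma 3.58.1 (R 4.3.3, lmFit and eBayes) and called at a Benjamini-Hochberg adjusted p under 0.05. The script was tested on simulated data. Named genes are the 12 highest and 12 lowest by the smaller of both absolute ratios among genes of equal sign, called genes, the 3 largest of opposite sign, and list members. The 20 lists were matched by symbol, locus or gene table text, and 2 of them, of ribosomal proteins and aquaporins, had no member. Some patterns were mended after matching (LHB1B2 added, EXO84B and UBA1A left out by name). The members and lists were chosen with earlier results of these data known. Promoter motifs were planned but not analysed here.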

Additional observations from a re-analysis of the deposited data

Results flagged for a closer look

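Of 147 genes named or listed, 2 had both arrays of 6 h on one side of 0 and all 5 arrays of 12 h on the other. The share over all named genes was not counted, so this is no sign that such genes are frequent. IVD had 0.10 and 0.48 at 6 h, with a mean of 0.29, and values from -2.04 to -0.03 at 12 h. The 6 h minus 12 h difference was 1.13 ± 0.46 (limma adjusted p = 0.999). CML23 had -0.04 and -0.31 at 6 h, with a mean of -0.18, and values from 0.09 to 0.44 at 12 h, a difference of -0.51 ± 0.30 (limma adjusted p = 0.999). AILP1, which was not in that pool, met the same rule. It had 1.19 and 0.40 at 6 h and values from -0.89 to -0.06 at 12 h. Its difference was 1.22 ± 0.27 (limma adjusted p = 0.824). None of these differences passed the test, and the smallest values lie close to 0.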

How the results depend on the processing

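In place of 1 call, limma gave 240 from the 2 arrays of 6 h alone without a dye term, 98 from targets measured on all 13 arrays, 58 when features were kept apart, 8 after scaling arrays to a common spread and 4 when the dye was left out. It called 0 with a separate dye term for ScanAlyze 2.33, without centring, or with array 2 of 6 h turned as its title lists the times. Leaving out single arrays gave 0 to 272 calls: for the arrays of 12 h, 272 when array 1 was dropped, 7 for array 2, 8 for array 4 and 0 for arrays 3 and 5; 9 when either 18 h array was dropped; and 0 when either 6 h array was. Where 1 array of 6 h was left out, the lone array was assumed to vary like the others. Dropping array 1 of 12 h called 63 named genes, among them 24 of the 41 higher and 30 of the 53 lower agreeing genes. The 2 arrays of 6 h alone called 45 named genes, all of them agreeing genes (23 higher and 22 lower). Agreeing genes were chosen for size on the same 6 h values that these fits test. The overlap is therefore built in and is no support for them. The fitted value of AT3G62550 was 0.67 ± 1.3 with array 2 turned and 2.48 to 3.82 in the other alternatives. Leaving out 1 array of 6 h also moved other named genes. The dye term then comes from the other arrays, so the fitted value is not the reading of the array kept. Without array 1 and without array 2, AT1G70820 had 1.25 and 5.43, AT1G68440 had -0.96 and -4.25, AT5G16110 had -1.09 and -3.15, and COR47 had 1.31 and 2.64. The arrays themselves read 2.02 and 1.93 for COR47. Calls for 6 h minus 12 h were 0 in every alternative run. The 41 higher and 53 lower genes became 158 and 181 at 1.5-fold, 11 and 11 at 3-fold, and 0 and 6 with array 2 turned. No paired analysis was possible because the labels give no replicate numbers that link arrays of different times. The causes of these differences were not tested.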
